A study of Homo sapiens with 8 samples.

Results

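The comparison is of SKBR-3 cells treated with 300 nM lapatinib for 48 h against SKBR-3 cells treated with DMSO, the vehicle, for the same time. SKBR-3 is an established human breast cancer line with an amplified ERBB2 gene (HER2) that lacks the estrogen and progesterone receptors, and lapatinib is a small molecule that blocks the kinase domains of EGFR and HER2. The genes compared were those with a normalised read count of 100 or more in either of the 2 libraries, which left 10221 of the 20531 genes listed. The series holds 8 libraries of poly(A) RNA, 1 for each of 4 treatments (DMSO, 300 nM lapatinib, 300 nM JQ1 and both drugs together) in SKBR-3 and in BT474m1, a HER2-amplified line derived from BT474 that expresses both hormone receptors. JQ1 blocks the acetyl-lysine binding pockets of the BET proteins, a family of chromatin readers. The SKBR-3 libraries with both drugs and with JQ1 alone share no library with the main pair and also differ by lapatinib, so they are given beside it as a repeat, on a background of JQ1. The BT474m1 lapatinib and DMSO libraries are given as the same treatment in a second line. Each group was 1 library of 1 line grown in serum-supplemented RPMI, so no difference could be set against a spread between cultures and no p-value is given.

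HER2 has no ligand of its own and signals as a partner of the other ERBB receptors, above all of HER3, which binds neuregulins and carries the docking sites for PI3-kinase. The active receptors feed the RAS and ERK cascade and the PI3K, AKT and mTOR cascade. AKT keeps the FOXO transcription factors out of the nucleus, while ERK and mTOR support cyclin D synthesis, ribosome production and entry into S phase. In the breast, the same receptors act on a luminal epithelium whose normal work is secretion.

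Values are read counts estimated per gene, with the upper quartile of each library set to 1000 by the authors, and they are not divided by gene length, so levels are not compared between genes. A gene was called raised or lowered at a difference of log2(value + 1) of at least 1 (2-fold), and log2 values below are lapatinib minus DMSO on that scale. The depth was 22082537 reads on genes with DMSO and 21420111 with lapatinib, and the 95% intervals quoted are for counting error only, since the libraries carry no molecular identifiers and copies made by PCR are counted as reads.

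With lapatinib 825 of the 10221 genes tested were raised (8.07%) and 839 were lowered (8.21%), with a median log2 of 0.05 over all of them. The falls were the deeper side: 148 genes fell at least 8-fold (1.45%) and 17 rose as much (0.166%). Of the 148 deep fallers 70 were members of the 7 lists of cell cycle genes described below. The steepest rises included breast secretory products, mucins and FOXO target genes. Scaling the libraries by the median of ratios moved the median log2 of all genes by -0.09, and then 633 genes were raised and 960 lowered. Of the 346 called genes that the naming rule takes, 22 lost their call under that scaling: ACSL5, ACVR1, CREB3L4, CTSD, DDB2, DDR1, EIF2AK3, ELF3, ELF5, FBXL20, H2BC5, HADHB, ID4, JUNB, KLF8, MAML3, RBL2, SEMA3E, SEMA4A, SPRY1, SUSD2 and TAPBP. Many genes lay close to the 2-fold line, with 186 raised genes at a log2 under 1.1 and 222 uncalled genes from 0.9 up to 1. On the falling side 113 called genes lay above -1.1 and 136 uncalled ones between -1 and -0.9. The genes nearest the line, taken for their position only, were DDAH2 (216 to 433) just past a 2-fold rise and MARCHF8 (106 to 213) just under it, and SCLY (259.8 to 129) just past a 2-fold fall and MAP7D3 (107 to 52.8) just under it.

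**Figure D1:**
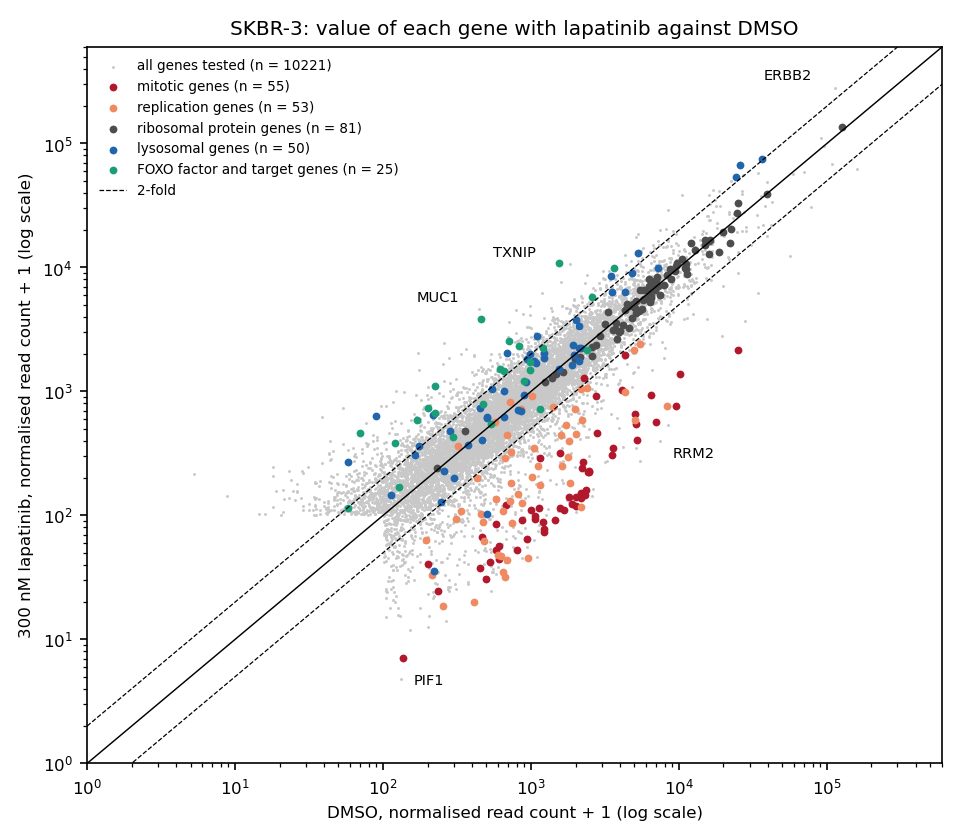
Each point is 1 gene, with its normalised read count plus 1 in the DMSO library on the x axis and in the lapatinib library on the y axis, both on a log scale, with dashed lines at 2-fold. The mitotic genes (red) and replication genes (orange) lie below the lower dashed line for 54 of 55 and 46 of 53 members, the 81 ribosomal protein genes (dark grey) lie between the dashed lines, and FOXO genes (green) lie on or above the diagonal for all but 2 of 25.

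The markers of the line were present in both libraries. All 10 epithelial markers were far above 100, with KRT8, a keratin of simple epithelia, at 59145 and 56640.4 and EPCAM at 4518 and 4033 with DMSO and lapatinib. The estrogen receptor ESR1 was at 4.29 and 16.8, the progesterone receptor PGR at 1.43 and 3.06, and E-cadherin CDH1, whose gene is deleted in SKBR-3, at 4.29 and 6.13. Of 17 markers of fibroblasts, endothelium and blood, 11 and 12 were at a value of 10 or less in the DMSO and lapatinib libraries, and their summed value was 483 and 564. CD68, which is also a lysosomal membrane protein, made up most of that sum with lapatinib, at 178 with DMSO and 407 with lapatinib. COL1A1, a fibrillar collagen, fell from 124 to 35.2, and the part of these markers in the results was not tested.

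ERBB2 itself showed the largest gain in value of any gene. The gene lies on chromosome 17 at 39688094 to 39728658 of GRCh38.p14 on the RefSeq annotation, and its value was 112656 with DMSO and 277859 with lapatinib (log2 1.30, 95% interval 1.29 to 1.31). It took 0.713% of the summed value of all genes with DMSO and 1.69% with lapatinib. ERBB3, the kinase-impaired partner that recruits PI3-kinase, rose from 3623 to 9897 (log2 1.45, interval 1.40 to 1.50). The drug's other target EGFR was at 2769 with DMSO and 3369.6 with lapatinib, under 2-fold. ERBB4 stayed below the filter, at 27.9 and 62.0. In the repeat on JQ1, ERBB3 rose again (log2 1.22), whereas ERBB2 differed by 0.85 and did not reach 2-fold. In BT474m1 the log2 values were 1.15 for ERBB3 and 0.31 for ERBB2.

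Of the 15 receptors and regulators listed, 13 passed the filter, 3 rose (23.1%, beside 8.07% of all genes) and 0 fell, with a median log2 of 0.44 beside 0.05. The riser outside the receptors, at log2 1.22, was CBLB, a ubiquitin ligase that turns over active receptors, which went from 118 to 276. Its relative CBL, the main ligase for EGFR, was at 1514 and 1564. LRIG1, a membrane protein that drives ERBB receptor degradation, went from 709 to 1087 (log2 0.62), and ERRFI1, the feedback inhibitor MIG6 that binds the ERBB kinase domain, from 644 to 440.3 (log2 -0.55), neither past 2-fold. Of the 11 EGF family ligand genes, EGF alone passed the filter and rose from 311 to 744, while its log2 was 0.70 in the repeat and -0.18 in BT474m1. The others were low in both libraries: HBEGF was at 15.7 with DMSO and 3.83 with lapatinib, BTC at 14.3 and 34.5, and TGFA and NRG1 were listed at 0 in both.

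The neighbours of ERBB2 in the amplified segment of chromosome 17 did not move with it as a block. Of 12 tested, 2 rose (16.7%, beside 8.07% of all genes) and 0 fell, and the median log2 was -0.06. GRB7, an adaptor that binds HER2 and lies next to its gene, rose from 5154 to 17630.2 (log2 1.77), and FBXL20, an F-box subunit of a ubiquitin ligase, from 1195 to 2494. Beside them MED1, a Mediator subunit, was at 22772 and 21330.0, CDK12, a kinase of elongating RNA polymerase II, at 38088 and 31034, and STARD3, a cholesterol carrier of late endosomes, at 6514 and 6401. PSMD3, a proteasome subunit gene of the same segment, was at 16498 and 10509 (log2 -0.65). MED1, CDK12, STARD3 and PSMD3 were chosen after their values were seen.

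Few genes of the PI3K, AKT and mTOR list passed 2-fold. Of 37 members tested, 4 rose (10.8%, near the 8.07% of all genes) and 0 fell, with a median log2 of 0.11. INPP5D, which encodes the lipid phosphatase SHIP1, rose from 23.6 to 157 (log2 2.68, interval 2.20 to 3.31). PIK3IP1, a membrane protein that inhibits the PI3-kinase catalytic subunit, rose from 338 to 2007 (log2 2.57), DEPTOR, an inhibitory partner of mTOR, from 225 to 569, and SESN2, a sensor that holds mTORC1 back when leucine is short, from 111 to 269.5. All 4 rose in the repeat, by 3.43, 2.39 and 2.12 on the log2 scale for the last 3, while INPP5D rests there on 4 reads with JQ1 and 41 with both drugs. The kinase genes stayed under 2-fold: PIK3CA was at 470.3 and 796 (log2 0.76), AKT1 at 4919 and 3378 (log2 -0.54), MTOR at 1953 and 1691, and RPS6KB2, an S6 kinase, at 1384 and 768 (log2 -0.85).

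FOXO factors and their target genes rose in larger share than any other list of 20 or more tested members. Of 25 tested, 14 rose (56%, beside 8.07% of all genes) and 0 fell, and the median log2 was 1.17 against 0.05 for all genes. FBXO32 (atrogin-1), a ubiquitin ligase subunit first known from muscle wasting, rose from 462 to 3874 (log2 3.07, interval 2.95 to 3.19). TXNIP, an inhibitor of thioredoxin and of glucose uptake, rose from 1555 to 10881 (log2 2.81). YPEL3, a growth-suppressive gene, went from 224 to 1111, the insulin receptor INSR from 199 to 737, the unconventional cyclin CCNG2 from 712 to 2538, and the transcriptional repressor BCL6 from 168 to 589.6. The stress gene GADD45A, whose product binds PCNA, went from 119 to 384. Each of these 7 genes rose at least 2-fold in the repeat as well. Among the factors themselves FOXO3 rose from 829.6 to 2342, FOXO1 was at 295 and 426 (log2 0.53), and FOXO4 lay below the filter at 32.9 and 96.5. FOXO3 has a near-identical copy, FOXO3B, between which its reads may be divided. The members without a 2-fold change included SOD2, the mitochondrial superoxide dismutase (2407 to 2158), KLF6, a Krueppel-like factor (1147 to 724), and CDKN1B, the CDK inhibitor p27 (892 to 1207).

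Of the genes that ERK signalling switches on, several fell and many were too low for the filter. Of 20 MAPK feedback and ETS target genes 12 were tested, with a median log2 of -0.67. Of these 5 fell (41.7%, beside 8.21% of all genes) and 1 rose (8.33%, near the 8.07% of all genes). EGR1, an immediate early transcription factor, fell from 225 to 27.6 (log2 -2.98, interval -3.57 to -2.53), SPRY4, a Sprouty inhibitor of RAS signalling, from 126 to 16.8, and EPHA2, an ephrin receptor, from 545 to 98.8. DUSP7, an ERK phosphatase, fell from 269 to 129. CCND1, which encodes cyclin D1, fell from 4989 to 1425 (log2 -1.81). SPRY1 was the exception and rose from 188 to 399.7. Below the filter, the ETS factor ETV4 was at 24.3 with DMSO and 3.06 with lapatinib, ETV1 at 22.9 and 0.766, and SPRY2 at 12.9 and 2.30. DUSP6, the ERK phosphatase most often read as an output of the pathway, was low in both, at 10.7 and 9.19, and FOSL1 and ETV5 were at or under 3 reads in both. DUSP4, another ERK phosphatase, was at 1105 and 1301, and MYC, a growth-promoting transcription factor, at 2143 and 1349.9 (log2 -0.67). JUNB, an AP-1 subunit and the only riser among 14 immediate early genes (7.14%, near the 8.07% of all genes), went from 697 to 1468. Its log2 in the repeat was 0.05.

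**Figure D2:**
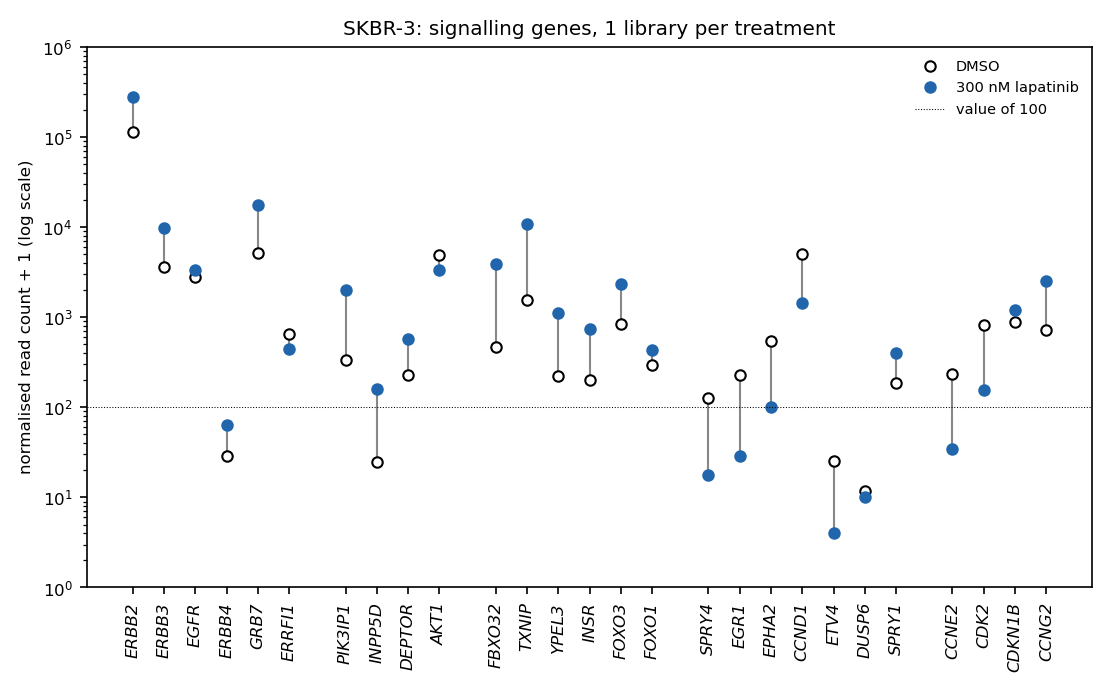
For each signalling gene named on the x axis, the open circle is the normalised read count plus 1 with DMSO and the filled circle that with lapatinib, on a log scale, with 1 library per treatment and therefore no error bar. From left to right the groups are ERBB genes, PI3K pathway genes, FOXO genes, MAPK genes and G1 genes: ERBB3, PIK3IP1, FBXO32 and TXNIP lie higher with lapatinib, and SPRY4, EGR1, EPHA2, CCND1, CCNE2 and CDK2 lie lower.

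Among receptor tyrosine kinases outside the ERBB family, 3 of 18 tested rose (16.7%) and 2 fell (11.1%), beside 8.07% and 8.21% of all genes. The risers were INSR, PTK7, a pseudokinase of planar cell polarity (95.9 to 283), and DDR1, a collagen receptor (6815 to 14257). The fallers were EPHA2 and FGFR3, a fibroblast growth factor receptor (705 to 295). All 5 passed 2-fold in the same direction in the repeat.

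The G1 machinery was lower in its cyclin E and cyclin D1 arms. Of 14 G1 cyclins, CDKs and CDK inhibitors tested, 5 fell (35.7%) and 1 rose (7.14%), beside 8.21% and 8.07% of all genes. CCNE2, a cyclin E, fell from 232 to 33.5 (log2 -2.75, interval -3.27 to -2.32), CCNE1 from 410.2 to 155 and their partner CDK2 from 822 to 155. CCND3 went from 1213 to 666 and CDK4 from 1555 to 874, by -0.86 and -0.83, which is short of 2-fold, and CDK6 was at 1356 and 1514. The inhibitor p27 (CDKN1B) was at 892 and 1207 (log2 0.44) and p21 (CDKN1A) at 155 and 214 (log2 0.47). In the repeat CDKN1B rose by 1.06 and CDKN1A stood at -0.70, and in BT474m1 they stood at -0.19 and -1.52, the latter past a 2-fold fall. CDKN2B, the p15 inhibitor of CDK4 and CDK6, was at 209 and 407, just short of 2-fold. CDKN2D, the p19 member of the same family, fell from 119 to 19.1, and in the repeat its log2 was -0.77.

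Downstream of the G1 kinases, 12 of 18 RB, E2F and DREAM genes fell (66.7%) and 1 rose (5.56%), beside 8.21% and 8.07% of all genes. The E2F activators E2F1 (752 to 66.6) and E2F2 (523 to 41.3) and the repressors E2F7 (579 to 32.9) and E2F8 (545 to 33.7) all fell at least 8-fold. MYBL2, the MYB protein that joins the MuvB complex to switch on mitotic genes, fell from 5467 to 276 (log2 -4.30) and FOXM1, its partner there, from 3274 to 272 (log2 -3.59). RBL2, the p130 pocket protein of quiescent cells, was the riser, from 1169 to 2385. In a bulk library, fewer dividing cells and less of these RNAs per cell cannot be told apart, which holds for every cell division gene given here.

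Origin licensing and replication fork genes were lowered in 46 of 53 cases (86.8%, beside 8.21% of all genes) with none raised, a median log2 of -2.16. MCM10, which helps switch on the replicative helicase, fell from 955 to 44.4 (log2 -4.40, interval -4.83 to -4.05), and ORC1, the origin recognition subunit whose level follows the cell cycle, from 662 to 30.6. The helicase cofactors GINS2 (414 to 19.1) and CDC45 (644 to 33.7) fell at least 16-fold, as did DTL, the ubiquitin ligase adaptor that removes the licensing factor CDT1 (2179.7 to 116). CDT1 itself fell from 691 to 42.9. The list took 0.477% of the summed value with DMSO and 0.129% with lapatinib. In the repeat 43 of the 46 fell again.

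Enzymes that supply nucleotides followed, 14 of 27 lowered (51.9%, beside 8.21% of all genes) and none raised. RRM2, the S-phase subunit of ribonucleotide reductase, fell from 7440.2 to 397 (log2 -4.22) and thymidylate synthase TYMS from 2578 to 143 (log2 -4.16). Thymidine kinase TK1 (4846 to 1092), thymidylate kinase DTYMK (815 to 167) and CTP synthase CTPS1 (1627 to 348) fell at least 4-fold each. The nucleoside transporters that bring the same molecules in from outside were lower too, SLC29A1 (ENT1) from 729 to 123 and SLC29A2 (ENT2) from 412 to 120.2.

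The mitotic list held the lowest median of all 78 lists: 54 of 55 members fell (98.2%, beside 8.21% of all genes), none rose, and the median log2 was -3.47. SPC24 and SPC25, subunits of the NDC80 complex that ties kinetochores to microtubules, fell from 136 to 6.13 and from 495 to 29.9. CENPE, the kinesin of chromosome congression, fell from 2001 to 117, KIF4A, a chromosome-bound kinesin, from 2324 to 144, NCAPG, a condensin subunit, from 1463 to 90.7 and DLGAP5, a spindle assembly factor, from 1224 to 72.0. TOP2A, the topoisomerase that untangles sister chromatids, was among the genes with the largest loss in value, from 24959 to 2174 (log2 -3.52). Together the mitotic genes went from 0.942% to 0.112% of the summed value. In the repeat 53 of the 54 fell again, with a median log2 of -5.24 (-5.18 with values at or under 3 reads set to 3 reads), and in BT474m1 the median was -4.44.

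Repair genes of the homologous recombination and Fanconi pathways gave 21 falls among 23 tested (91.3%, beside 8.21% of all genes) and a median log2 of -2.16. RAD54L, a DNA motor protein of the pathway, fell from 537 to 23.7 (log2 -4.44), the end-resecting nuclease EXO1 from 864 to 44.4, the end-joining polymerase POLQ from 499.6 to 30.6, the helicase BLM from 533 to 38.3, and BRIP1, a BRCA1-bound helicase, from 219 to 21.4. Among 21 DNA methylation and polycomb genes 5 fell (23.8%, beside 8.21% of all genes) and none rose. UHRF1, which brings DNMT1 to hemimethylated DNA behind the fork, fell from 1095 to 45.2 (log2 -4.57), HELLS, a remodeller needed for DNA methylation, from 351 to 46.7, the maintenance methyltransferase DNMT1 from 2581 to 758, and EZH2, the polycomb methyltransferase, from 1115 to 208. PIF1, a DNA helicase, showed the steepest fall of all genes tested, from 131 to 3.83 (log2 -4.77, interval -6.74 to -3.85), where the lapatinib value rests on 5 reads. Replication-dependent histone genes, whose transcripts mostly lack poly(A) tails, had 7 members of 65 past the filter and none fell. H2AC6 (318 to 689) and H2BC5 (145 to 299) rose (28.6% of the 7, beside 8.07% of all genes), and their log2 values in the repeat were -0.33 and 0.31.

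Promoters of these lists held the letters of 2 cell cycle elements. Promoter windows of 250 bases before to 50 after the start were taken from RefSeq (GRCh38.p14) and matched 8349 of the 10221 genes tested. The cell cycle homology region, TTTGAA or TTCGAA on either strand, is bound by the MuvB part of the DREAM complex. It was in 35 of 46 mitotic promoters (76.1%), in 25.3% of all lowered genes and in 11.0% of all genes tested. The E2F letters, TTCCCGC or TTGGCGC on either strand, were in 60.9% of 46 replication promoters and 70.0% of 20 recombination promoters, against 25.8% of lowered genes, 11.2% of raised genes and 15.5% of all genes tested. A match of letters is a description of the window and not a binding site. The stretches below, each 80 bases long and wholly before the start, come from the members of each list that fell furthest and hold the letters there, with the match in capitals.

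DLGAP5, chr14:55191652-55191731 of GRCh38.p14, minus strand: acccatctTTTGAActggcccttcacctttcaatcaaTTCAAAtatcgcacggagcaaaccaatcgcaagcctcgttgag

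SPC25, chr2:168890601-168890680 of GRCh38.p14, minus strand: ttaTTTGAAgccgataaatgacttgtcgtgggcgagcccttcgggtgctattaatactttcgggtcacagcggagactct

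KIF4A, chrX:70290024-70290103 of GRCh38.p14, plus strand: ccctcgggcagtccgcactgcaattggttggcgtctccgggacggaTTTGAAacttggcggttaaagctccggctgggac

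ORC1, chr1:52404424-52404503 of GRCh38.p14, minus strand: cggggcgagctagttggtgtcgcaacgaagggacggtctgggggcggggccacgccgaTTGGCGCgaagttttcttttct

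GINS2, chr16:85688955-85689034 of GRCh38.p14, minus strand: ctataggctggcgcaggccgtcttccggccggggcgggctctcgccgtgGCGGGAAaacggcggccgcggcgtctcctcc

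DTL, chr1:212035668-212035747 of GRCh38.p14, plus strand: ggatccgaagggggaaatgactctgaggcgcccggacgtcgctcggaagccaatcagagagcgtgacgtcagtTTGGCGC

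DLGAP5, SPC25 and KIF4A are shown for the homology region and ORC1, GINS2 and DTL for the E2F letters. The match nearest the start began 34 bases before it in KIF4A and 247 in SPC25, and 7, 22 and 31 bases before it in DTL, ORC1 and GINS2. Each of these 6 genes fell at least 16-fold.

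**Figure D3:**
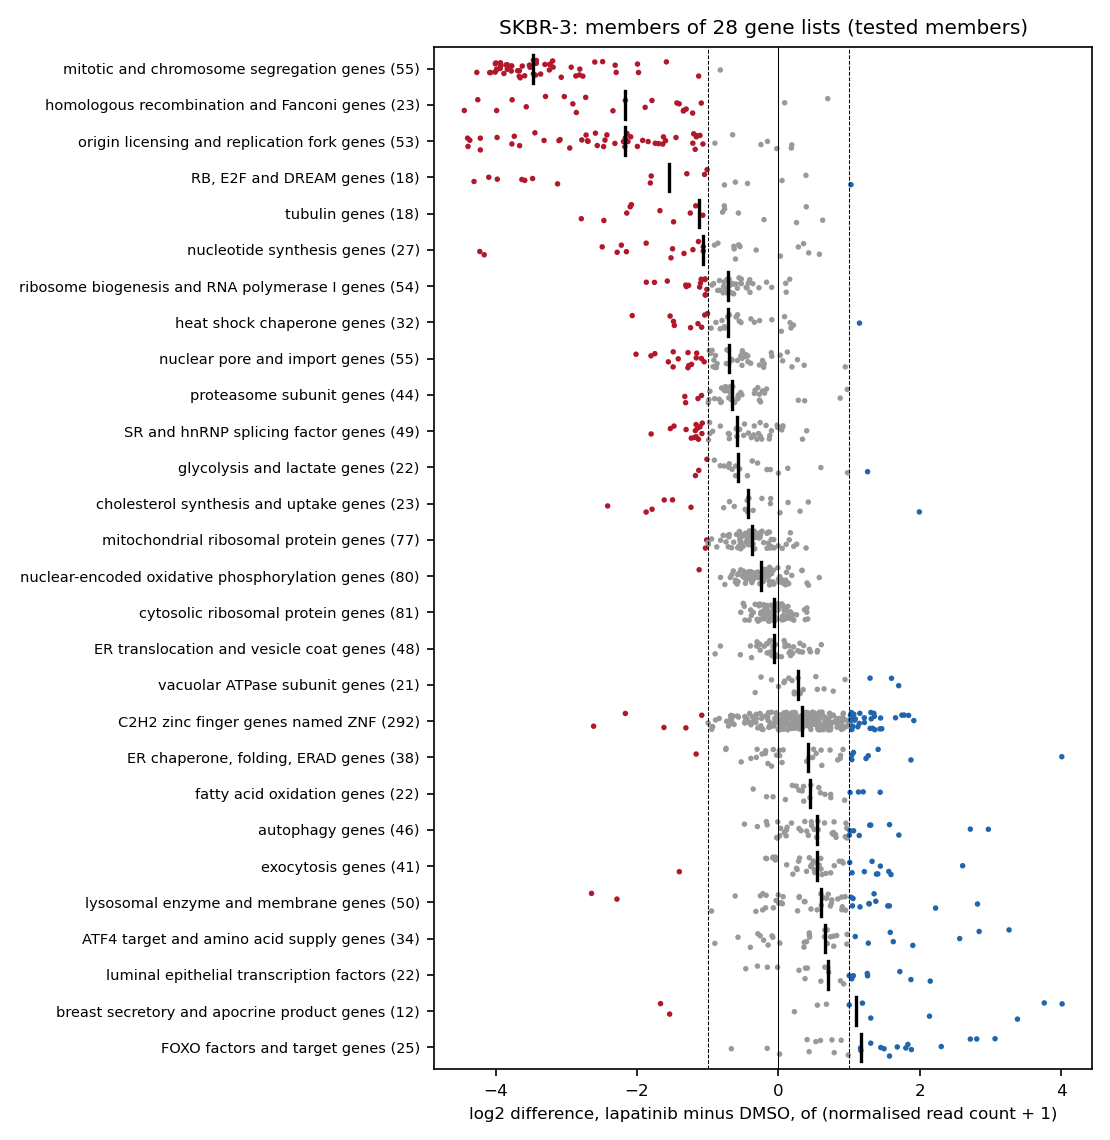
Each dot is 1 gene that passed the filter, placed by its log2 difference between lapatinib and DMSO on the x axis and by its list on the y axis (number tested in brackets), with blue for a rise and red for a fall of at least 2-fold and a black bar at the list's median. Medians run from -3.47 for the mitotic genes to 1.17 for the FOXO genes, and the cytosolic ribosomal protein genes sit within 2-fold throughout.

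Tubulin genes fell with the spindle genes. Of 18 tubulin genes tested 10 fell (55.6%, beside 8.21% of all genes) and none rose. The median log2 was -1.12, and the list went from 0.485% to 0.107% of the summed value. The abundant isotypes led: TUBA1B fell from 19412 to 2812, TUBB from 34410.2 to 6219, TUBB4B from 7948 to 1859 and TUBA1C from 6621 to 1497. Reads of tubulin genes can be shared between near-identical copies, so the split between isotypes is uncertain. Of 30 actin and myosin genes 5 fell (16.7%) and 2 rose (6.67%), beside 8.21% and 8.07% of all genes. The fallers included the cytoplasmic actins ACTB (78049 to 30688) and ACTG1 (19707 to 7152), which also share reads, and FLNA, the filamin that crosslinks actin (7717 to 2519). MYH14, a nonmuscle myosin heavy chain (2019 to 4769.5), rose. Of 37 genes of intraflagellar transport and the BBSome, which build and serve primary cilia, 4 rose (10.8%) and none fell, a share near the 8.07% of all genes. The risers were IFT140 (360.1 to 826), BBS4 (232 to 512), BBS1 (273 to 600.5) and the kinesin-2 adaptor KIFAP3 (533 to 1154).

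The machinery that makes ribosomes was lower, while the ribosomal protein genes themselves were level. Of 54 ribosome biogenesis and RNA polymerase I genes 14 fell (25.9%, beside 8.21% of all genes) and none rose, a median log2 of -0.71. BOP1, a factor of large-subunit maturation, fell from 1096 to 299.7 (log2 -1.87), TCOF1 (treacle), which serves ribosomal RNA transcription, from 3856 to 1144, NOP16, a nucleolar protein of large-subunit assembly, from 661 to 222, NOLC1, a nucleolar chaperone, from 3232 to 1312, and NOP56, a core protein of box C/D particles, from 3651 to 1515. Of 81 cytosolic ribosomal protein genes none passed 2-fold in either direction, and their log2 values ran from -0.53 to 0.42 with a median of -0.06. Their share of the summed value was 4.85% with DMSO and 4.66% with lapatinib. The E-box CACGTG, the letters of MYC with MAX and of several other factors, was in 35.6% of 45 ribosome biogenesis promoters, in 4.62% of ribosomal protein promoters and in 10.7% of all genes tested.

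Translation factors gave 4 falls (6.78%) and 1 rise (1.69%) among 59 tested, both shares below the 8.21% and 8.07% of all genes. EIF5A, the hypusine-bearing factor of translation, fell from 6961 to 3338 and its relative EIF5A2 from 351 to 129. EIF5AL1, a close copy of EIF5A with which it may share reads, fell from 2761 to 1302. EIF3C, a subunit of initiation factor 3, fell from 295 to 120.5 but rose from 390.3 to 1986 in the repeat, and its reads may be divided with the near-identical EIF3CL. Mitochondrial ribosomal protein genes lay mostly just below 0, with 70 of 77 below 0 and 2 of them lowered, MRPL11 (1015 to 496) and MRPL18 (1369 to 678). Of 20 cytosolic tRNA synthetase genes 2 fell (10%, near the same 8.21%), VARS1, the valyl enzyme (3745 to 1534), and FARSB, a subunit of the phenylalanyl enzyme (1764 to 776), and 1 of them fell again in the repeat.

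Genes of RNA splicing and nuclear transport fell where they were called. Of 49 SR and hnRNP genes 14 fell (28.6%, beside 8.21% of all genes) and none rose. The falls were led by the SR proteins SRSF2 (4928 to 1415), SRSF7 (1878 to 651) and SRSF3 (5058 to 2047) and by HNRNPA2B1, an abundant RNA-binding protein (24898 to 8951). Of 55 nuclear pore and import genes 15 fell (27.3%, beside the same 8.21%) and none rose. KPNA2, an importin alpha of dividing cells, fell from 15451 to 3827 (log2 -2.01), its export receptor CSE1L from 12477 to 4243, the pore ring subunit NUP107 from 1218 to 362 and the pore membrane protein NDC1 from 2165 to 620.2.

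Heat shock chaperone genes had 9 falls (28.1%) and 1 rise (3.1%) among 32 tested, beside 8.21% and 8.07% of all genes. Their median log2 was -0.71. CHORDC1, a partner of HSP90, fell from 1193 to 284 (log2 -2.07), the mitochondrial chaperonin HSPD1 from 11370.3 to 3935, CCT5, a subunit of the chaperonin that folds actin and tubulin, from 10819.6 to 3869, and the constitutive HSC70 gene HSPA8 from 39362 to 17900.5. HSP90AA1, the inducible HSP90, was among the largest losses in value, from 42219 to 21838, at a log2 of -0.95. CRYAB, a small heat shock protein, rose from 93.8 to 209. Proteasome subunit genes lay below 0 in 40 of 44 cases, beside 4757 of all 10221 genes, with a median log2 of -0.66, and 4 fell (9.09%, near the 8.21% of all genes): the deubiquitinase subunit PSMD14 (1921 to 767), the ATPase PSMC3 (2573 to 1036), the assembly chaperone PSMG1 (979 to 445) and PSMD2 (8566 to 4034).

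Glycolysis and lactate genes had a median log2 of -0.58 over 22 tested, with 3 lowered (13.6%, beside 8.21% of all genes) and 1 raised (4.55%, beside 8.07%). LDHA, the lactate dehydrogenase of glycolytic tissue, fell from 30835 to 15309, LDHB from 6653 to 2952 and PFKP, the platelet form of phosphofructokinase, from 1929 to 884. GAPDH, ALDOA and ENO1, which encode 3 enzymes of the same pathway, were among the 15 largest losses in value at log2 -0.65, -0.69 and -0.76. PFKFB3, which makes the activator of phosphofructokinase, rose from 548 to 1315, and its log2 in the repeat was 0.04. Nuclear-encoded oxidative phosphorylation genes were below 0 in 64 of 80 cases with a median of -0.25, and ATP5MC1, a c-ring subunit of ATP synthase, was the single faller (740.2 to 340.0). Among 30 pyruvate dehydrogenase and TCA genes 1 rose (3.33%) and 2 fell (6.67%), both shares below those of all genes. Cytosolic isocitrate dehydrogenase IDH1 rose from 1597 to 3669, pyruvate carboxylase PC fell from 636 to 246 and the pyruvate dehydrogenase kinase PDK3 from 190.4 to 93.4, and in the repeat they stood at 0.83, -1.12 and -0.67 on the log2 scale. PDK4, a FOXO-responsive kinase of the same complex, lay below the filter at 16.5 and 68.1.

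Of 22 fatty acid oxidation genes 4 rose (18.2%, beside 8.07% of all genes) and none fell, and the list median was 0.45 in SKBR-3 and -0.15 in BT474m1. The risers included ACADM, the medium-chain acyl-CoA dehydrogenase (1732 to 4702), EHHADH, a peroxisomal bifunctional enzyme (199 to 459), and HADHB, of the mitochondrial trifunctional protein (2760.2 to 5581). In the repeat ACADM rose by 1.27, while EHHADH and HADHB stood at 0.69 and 0.84, short of 2-fold. Cholesterol synthesis and uptake genes gave 6 falls and 1 rise among 23 (26.1% lowered, beside 8.21% of all genes). The acetoacetyl-CoA thiolase ACAT2 fell from 632 to 118 (log2 -2.41), DHCR7, a late enzyme of the pathway, from 1883 to 515 and INSIG1, the ER anchor of SREBP, from 594 to 172. TM7SF2, a sterol reductase, rose from 313 to 1249.6, and its log2 in the repeat was 0.85, short of 2-fold. The median log2 of the list was -0.43 in SKBR-3 and -1.85 in BT474m1, where 16 of the same 23 members fell. Among 26 fatty acid and triglyceride synthesis genes (3.85% raised and 7.69% lowered, both below the shares of all genes) ELOVL6, a fatty acid elongase (1545 to 671), and the NADPH-forming malic enzyme ME1 (1541 to 701) fell and the acyl-CoA synthetase ACSL5 (372 to 770.3) rose.

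Of 50 lysosomal enzyme and membrane genes tested 12 rose (24%, beside 8.07% of all genes) and 2 fell, 37 lay above 0, the median log2 was 0.61, and the list went from 0.958% to 1.82% of the summed value. PSAP, the precursor of the saposins that help break down sphingolipids, went from 25798 to 67097, among the 15 largest gains in value. So were those of CTSD, the aspartic protease cathepsin D (36297 to 75079), and PPT1, the palmitoyl-protein thioesterase (24223 to 53949). CTSD and PPT1 did not pass 2-fold in the repeat, and CTSD lost its call with scaling by the median of ratios and by equal totals. Steeper rises came from the cysteine cathepsins CTSO (88.8 to 632) and CTSF (56.5 to 268), the fucosidase FUCA1 (217 to 646), the acid glucosidase GAA (691 to 2025) and progranulin GRN (1094 to 2799). The exceptions were CTSV, a cathepsin related to cathepsin L (220.5 to 34.5), and GLA, the alpha-galactosidase (503 to 103), which both fell, and both fell in the repeat. Of the 12 risers 7 rose again in the repeat. Vacuolar ATPase genes gave 3 rises among 21 (14.3%, beside 8.07% of all genes), in the less common subunit forms ATP6V1G2 (32.7 to 109), ATP6V1B1 (621 to 1885) and ATP6V0A4 (223 to 551). In the repeat ATP6V1G2 rose again, and ATP6V1B1 and ATP6V0A4 stood at 0.93 and 0.41, short of 2-fold.

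The letters TCACGTG on either strand, an E-box form found in the CLEAR elements that TFEB and its relatives bind, were in 9 of 34 lysosomal promoters (26.5%) and in 4 of 16 vacuolar ATPase promoters, against 6.29% of all genes tested and 4.22% of all raised genes. These letters contain CACGTG, so the counts of both motifs overlap. GTAAACA or GTCAACA on either strand, the letters of FOXO and FOXA factors, were in 4 of 19 promoters of the FOXO list (21.1%). They were in 5.62% of raised genes, 2.19% of lowered genes, 3.37% of all genes tested and 5.67% of all RefSeq promoters. Other short lists varied, with 0 of 17 promoters in the cholesterol list, 2 of 10 in the ERBB list and 3 of 10 in the breast secretory list. The FOXO list was itself made of FOXO factors and target genes. The raised members with the largest changes that hold the letters before the start are shown, CTSF, GAA and CTSD for the lysosomal letters and TXNIP and BCL2L11 for the FOX letters, again with the match in capitals.

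CTSF, chr11:66568686-66568765 of GRCh38.p14, minus strand: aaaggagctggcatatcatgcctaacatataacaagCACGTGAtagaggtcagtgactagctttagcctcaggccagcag

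GAA, chr17:80101501-80101580 of GRCh38.p14, plus strand: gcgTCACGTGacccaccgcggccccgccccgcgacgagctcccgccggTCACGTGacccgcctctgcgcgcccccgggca

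CTSD, chr11:1763931-1764010 of GRCh38.p14, minus strand: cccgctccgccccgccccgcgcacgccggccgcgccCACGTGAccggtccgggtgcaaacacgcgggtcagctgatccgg

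TXNIP, chr1:145996660-145996739 of GRCh38.p14, minus strand: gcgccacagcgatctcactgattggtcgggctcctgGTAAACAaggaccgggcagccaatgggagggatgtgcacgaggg

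BCL2L11, chr2:111120664-111120743 of GRCh38.p14, plus strand: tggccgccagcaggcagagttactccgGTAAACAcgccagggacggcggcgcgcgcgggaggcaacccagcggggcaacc

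GAA held 2 matches before its start and the others 1 each. In CTSD, whose log2 was 1.05, the match began 47 bases before the start, and in TXNIP, whose log2 was 2.81, 124 bases before it.

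**Figure D4:**
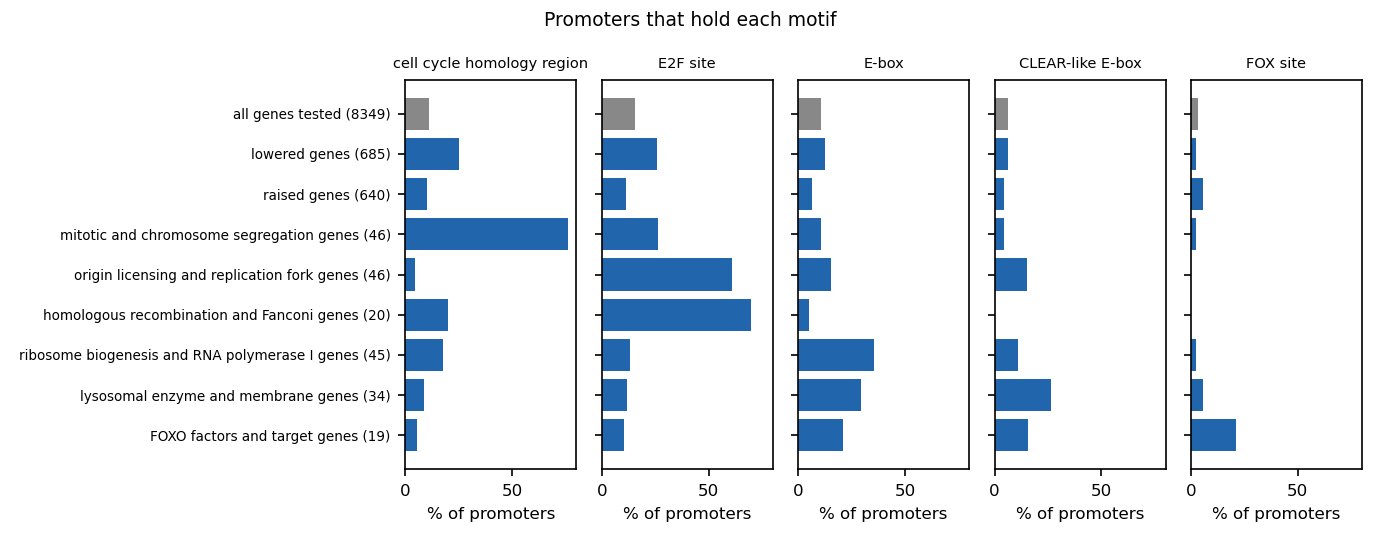
Bars give the percentage of promoter windows that hold each motif on either strand, in the sets named on the y axis with the number of promoters in brackets, and the grey bar is all genes tested. The homology region reaches 76.1% in the mitotic list, the E2F letters 60.9% and 70.0% in the replication and recombination lists, the E-box 35.6% in the ribosome biogenesis list and the lysosomal form 26.5% in the lysosomal list.

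Autophagy genes rose in 10 of 46 cases (21.7%, beside 8.07% of all genes) and none fell, a median log2 of 0.55. CALCOCO1, a receptor for ER and Golgi turnover, rose from 95.9 to 759 (log2 2.97), TP53INP1, which binds LC3, from 68.7 to 457, the cargo receptor NBR1 from 999 to 3258, GABARAPL1, an ATG8 protein, from 224 to 668, MAP1LC3B, the LC3 gene, from 752 to 1845 and PINK1, the kinase that marks damaged mitochondria, from 617 to 1528. TP53INP1, GABARAPL1 and PINK1 are also members of the FOXO list. CALCOCO1 rose by 3.54 on the log2 scale in BT474m1. In the repeat 8 of the 10 rose again.

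Of 38 ER chaperone, folding and degradation genes 8 rose (21.1%) and 1 fell (2.63%), beside 8.07% and 8.21% of all genes. None of 48 ER translocation and vesicle coat genes passed 2-fold. XBP1, the transcription factor of secretory cells and of the unfolded protein response, rose from 10526 to 38637 (log2 1.88, interval 1.85 to 1.90). ERN1, the IRE1 kinase that splices its RNA, went from 180.4 to 482, the PERK gene EIF2AK3 from 929 to 1943, DNAJB9, an ER co-chaperone, from 956 to 2309 and HERPUD1, an organiser of ER-associated degradation, from 2564 to 6059. CREB3L1, a membrane-bound transcription factor of secretory cells, rose from 37.9 to 626 (log2 4.01). SDF2L1, an ER chaperone cofactor, fell from 346 to 154. All 8 of the risers rose again in the repeat. Exocytosis genes gave 10 rises and 1 fall among 41 (24.4% raised, beside 8.07% of all genes): SYTL5 (25.1 to 158) and SYTL4 (497 to 1469), which tether vesicles through RAB27, RAB27B itself (276 to 733), the v-SNARE gene VAMP5 (55.1 to 152) and the synaptotagmin SYT15 (1495 to 3915) rose, and SYT12, another synaptotagmin, fell (806 to 305).

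Mucins and breast secretory products included some of the steepest rises. Of 4 mucin genes tested 3 rose (75%) and 1 fell (25%), beside 8.07% and 8.21% of all genes. MUC1, the transmembrane mucin of the apical surface, rose from 444 to 4645 (log2 3.38, interval 3.27 to 3.51), MUC15 from 103 to 758 and MUC16, which carries the CA125 antigen, from 412 to 1982, while the gel-forming MUC5B fell from 327 to 121. All 4 kept their direction past 2-fold in the repeat. Mucin-type glycosylation genes gave 6 rises and 3 falls among 37 (16.2% and 8.11%, beside 8.07% and 8.21% of all genes), with the sialyltransferase ST6GALNAC2 (27.2 to 227), B3GALT4 (52.3 to 377), B4GALNT3 (57.3 to 335) and the initiating enzyme GALNT12 (294 to 1038) higher and GALNT6, another initiating enzyme (2005 to 986), B4GALT2 (1193 to 578) and the fucosyltransferase FUT4 (177 to 65.1) lower. Of 12 breast secretory and apocrine genes tested 7 rose. PIP, the prolactin-induced protein of apocrine secretion, went from 7.87 to 142 (log2 4.01), SCGB2A2, which encodes mammaglobin A, from 53.0 to 731 (log2 3.76), AZGP1, a zinc-binding glycoprotein of secretory fluids, from 115 to 508 and clusterin CLU from 5525 to 13679. The calprotectin genes S100A8 (219.8 to 75.0) and S100A9 (2107 to 663) fell.

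Of 22 luminal transcription factors 8 rose (36.4%, beside 8.07% of all genes) and none fell, with a median log2 of 0.71. Of the 22, 18 lay above 0 and 4 below it, where 5464 of all 10221 genes lay above 0. TOX3, an HMG-box protein linked to breast cancer risk, rose from 70.9 to 318, the epithelial ETS factors EHF from 414 to 1364 and ELF3 from 6415 to 13391, KLF5, a Krueppel-like factor, from 466 to 1119 and CREB3L4 from 1731 to 3560.4. ELF5, which drives the milk programme of alveolar cells, was called at the 2-fold line, from 126 to 253. The pioneer factor FOXA1 was at 5198 and 7884 (log2 0.60) and GATA3, which specifies luminal cells, at 1623 and 3079.6 (log2 0.92), both under 2-fold, as was SPDEF, an ETS factor of secretory epithelium (4951 to 8116). The AP-2 factor TFAP2C was at 5550.5 and 4985. In the repeat 6 of the 8 rose again. In BT474m1 the list median was 0.11, with ELF5 at 1.22, past 2-fold, KLF5 at -0.19 and TOX3 at -0.68.

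Other lineage regulators included 4 risers and 1 faller among 13 Krueppel-like factors (30.8% and 7.69%, beside 8.07% and 8.21% of all genes), with KLF4 (694 to 2739.7) the largest rise and KLF2 (176 to 47.5) the fall. Of 24 nuclear receptors 4 rose (16.7%) and 2 fell (8.33%, near the share of all genes). The risers included NR2F2 (131 to 372), the oxysterol receptor NR1H3 (73.7 to 170.0) and the thyroid hormone receptor THRB (435 to 979), and the fallers were the vitamin D receptor VDR (1442 to 548) and NR4A3 (133 to 42.9). In the clock list 3 of 15 rose (20%) and 1 fell (6.67%), and 2 of the risers rose again in the repeat. BHLHE40, a repressor that answers to many stimuli, fell from 282 to 25.3 (log2 -3.43), and the cryptochrome gene CRY2 rose from 201 to 563 and by 2.01 on the log2 scale in the repeat. NPAS2, a partner of BMAL1, rose from 119 to 283 but stood at -0.85 in the repeat.

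Cell surface and adhesion genes changed in small numbers. Of 31 epithelial adhesion and junction genes 4 rose (12.9%, beside 8.07% of all genes): NECTIN4 (468 to 1467), the tight junction genes CLDN3 (896 to 2088) and CGNL1 (245 to 699.8) and the polarity gene PARD6B (385 to 825). CGNL1 stood at -0.10 in the repeat and -0.26 in BT474m1, and the other 3 rose again in the repeat. The desmosomal PKP1 fell from 754 to 335. KRT23 was the only keratin of 12 tested to pass 2-fold, from 42.9 to 277, though its log2 in the repeat was 0.95, short of 2-fold, and KRT7 gained 23352 units of value at a log2 of 0.75. ITGA9 (27.9 to 118) and the laminin beta-2 gene LAMB2 (1462 to 3871) rose among 14 integrins and laminins (14.3%, beside 8.07% of all genes). COL5A1, a fibrillar collagen, fell from 476 to 119.

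Genes of the ATF4 response and of amino acid supply rose in 8 of 34 cases (23.5%, beside 8.07% of all genes) with none lowered, a median log2 of 0.65. NUPR1, a small stress-induced nuclear protein, rose from 257 to 2477 (log2 3.26), CHAC1, which degrades glutathione, from 45.1 to 329, CBS, the entry enzyme of transsulfuration, from 22.2 to 136, DDIT3, the CHOP transcription factor, from 72.3 to 273, the cystine transporter SLC7A11 from 287 to 888 and the glycine transporter SLC6A9 from 509.9 to 1530.0. In the repeat 8 of the 8 rose again and NUPR1 rose by 6.83 on the log2 scale. The NRF2 and glutathione list gave 3 rises and 1 fall among 26 (11.5% and 3.85%, beside 8.07% and 8.21% of all genes): beside SLC7A11 and the falling malic enzyme ME1 it held the rises of GPX3, a secreted glutathione peroxidase (397 to 1423), and FTL, the ferritin light chain (817 to 2541), whose processed copies may take part of its reads.

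Transporters changed in both directions. Of 183 SLC genes tested 22 rose (12.0%, beside 8.07% of all genes) and 8 fell (4.37%, beside 8.21%), at a median log2 of 0.08. The glutamate transporter SLC1A2 rose from 43.7 to 283, ferroportin SLC40A1, the iron exporter, from 795 to 4551, the glucose transporter family members SLC2A10 from 179 to 845 and SLC2A13 from 535 to 2005, SLC44A4, a choline transporter-like protein, from 84.5 to 398, and SLC16A4, of the monocarboxylate family, from 89.5 to 404. Besides the nucleoside carriers above, the sulfate transporter SLC26A2 (243 to 85.0) and SLC2A6 (138 to 40.6) fell. Of 25 ABC genes 5 rose (20%) and 1 fell (4%), beside 8.07% and 8.21% of all genes, and the list median was 0.07. ABCC11, an apocrine lipid and drug exporter, went from 252 to 1672 (log2 2.73). The cholesterol exporter ABCA1 went from 19.3 to 100.3, the retinoid transporter ABCA4 from 32.9 to 141 and the phospholipid exporter ABCB4 from 30.8 to 110.2. ABCA5 rose from 475 to 1225, while ABCB6, a porphyrin transporter, fell from 1233 to 609. The metallothioneins MT2A (1468 to 553) and MT1X (159.6 to 59.0) fell. Of 11 potassium channel genes, with 18.2% called in each direction, KCNG1 (542 to 1597) and KCNJ11 (121 to 261) rose and KCNK5 (234 to 78.1) and KCNS3 (104 to 23.7) fell.

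The BCL2 family genes that rose encode BH3-only proteins, the triggers of mitochondrial cell death. Of 14 BCL2 family genes tested 3 rose (21.4%, beside 8.07% of all genes) and 2 fell (14.3%, beside 8.21%). The risers were BMF, which is held on the cytoskeleton until released (202 to 1083, log2 2.42), BCL2L11, which encodes BIM (654 to 1469), and BIK, of the ER membrane (48.0 to 122). All 3 rose again in the repeat. BCL2L12, a diverged family member (477 to 132), and the pore-forming BAX (253 to 123) fell, and in the repeat BAX stood at -0.51, short of 2-fold. BBC3, the PUMA gene, was at 56.5 and 113, just short of 2-fold. Among 20 p53 target genes (20% raised and 10% lowered) TP53INP1, GADD45A, SESN2 and the damage-binding gene DDB2 (176 to 368) rose and BAX and the nuclease gene AEN (443 to 177) fell, and SKBR-3 carries a mutated p53. CASP9, the initiator caspase of the mitochondrial pathway, rose from 62.3 to 157.

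Of 19 interferon-stimulated genes 3 rose and 3 fell (15.8% each, beside 8.07% and 8.21% of all genes). IRF9, the DNA-binding subunit of the interferon-response complex, rose from 13.5 to 102, IFI6 from 48.7 to 178 and SAMD9 from 95.9 to 316, and OAS3, an RNA-sensing synthetase, fell from 112 to 24.5, SAMHD1, which hydrolyses dNTPs, from 283 to 68.1 and USP18, which removes ISG15, from 448 to 157. MHC class I presentation had 1 riser of 13 (7.69%, near the share of all genes), TAPBP (1476 to 2987). Of the 4 complement genes tested 2 rose (50%, beside 8.07% of all genes), CLU and CD55, which protects cells from complement (790.3 to 2980.1). IL18, an epithelial cytokine, was the riser among 8 NF-kB targets and cytokines (12.5%, beside 8.07% of all genes), from 142 to 407. TAPBP and IL18 stood at 0.90 and 0.91 on the log2 scale in the repeat, short of 2-fold. HLA-DMA rose from 41.5 to 111, and its log2 in the repeat was -0.01.

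Few members of the developmental pathway lists were called. Of 18 Notch genes 2 rose and 2 fell (11.1% each, beside 8.07% and 8.21% of all genes). The coactivators MAML2 (45.1 to 202) and MAML3 (215 to 445) rose and the HES repressors HES4 (621 to 280.2) and HES6 (251 to 87.3) fell. Of 35 TGF-beta and BMP genes 4 rose (11.4%) and 2 fell (5.71%), near the same shares. The risers were the activin receptors ACVR2A (173 to 407) and ACVR1 (228 to 457), the decoy receptor BAMBI (740.2 to 1583) and ID4 (220.5 to 448), of which ACVR1 and ID4 lost their call with scaling by the median of ratios and by equal totals, and the fallers were the receptor BMPR1B (106 to 23.0) and the protease BMP1 (119 to 54.4). In the repeat ACVR2A stood at 0.63 and BMPR1B at -0.74, short of 2-fold. WNT9A (215 to 85.8) was the single call among 23 Wnt genes (4.35% lowered, below the 8.21% of all genes). Its log2 in the repeat was -0.41, short of 2-fold. Of 19 YAP and TEAD target genes 1 rose and 1 fell (5.26% each), below the 8.07% and 8.21% of all genes. AMOTL1, a YAP-binding angiomotin, rose from 4361 to 10479 and CCN2 (CTGF), the standard YAP output, fell from 239 to 103. PLXNB2, a plexin that binds class 4 semaphorins, was among the largest gains in value but just short of 2-fold (16116 to 32216). Of 18 semaphorin, plexin and neuropilin genes none fell and 2 rose (11.1%, beside 8.07% of all genes), SEMA3E (1617 to 3400.5) and SEMA4A (249.8 to 504). Of 13 genes of the BET and P-TEFb list 1 rose and 1 fell (7.69% each, near the shares of all genes). The BET gene BRD3 rose from 501 to 1213, and ELL2, an elongation factor, fell from 284 to 130.2.

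Of 292 zinc finger genes named ZNF that were tested, 225 lay above 0, 31 rose (10.6%, near the 8.07% of all genes) and 5 fell (1.71%, beside 8.21%), with a median log2 of 0.33 beside 0.05. ZNF862 (103 to 392), ZNF552 (464 to 1468) and ZNF750, a regulator of epithelial differentiation (253 to 912), rose, and ZNF367 (727 to 118) and ZNF695 (117 to 25.3) fell. Of the 31 risers 22 rose again in the repeat. Of 17 small nucleolar RNA host genes tested 4 fell (23.5%) and 1 rose (5.88%), beside 8.21% and 8.07% of all genes. The list median was 0.37, with 10 members above 0 and 7 below it. SNHG3 (152 to 34.5), SNHG1 (616 to 194), SNHG15 (447 to 193) and SNHG17 (515 to 254) fell and EPB41L4A-AS1 (124 to 275) rose. In the repeat 5 of the 17 rose at least 2-fold and 3 fell. H19, an imprinted long noncoding RNA, lost more value than any other gene, from 159004 to 62279 (log2 -1.35). Of 85 lncRNA genes tested 13 rose (15.3%) and 11 fell (12.9%), beside 8.07% and 8.21% of all genes.

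Several of the largest rises and falls lay outside the lists. Among the 25 largest rises were TCP11L2 (17.2 to 246), CYP4B1, a cytochrome P450 (171 to 2034), YPEL2, a relative of YPEL3 (22.2 to 226), CREBRF, a regulator of the stress factor CREB3 (42.9 to 400.5), the adhesion receptor ADGRF1 (175 to 1493), CRISP3, a secreted cysteine-rich protein (122 to 1003), the microtubule-binding MAP2 (22.9 to 194) and the calcium channel subunit ORAI3 (27.9 to 219.8). GTF2IRD2B (75.2 to 556) has a near-identical neighbour, and its value is uncertain. The 25 largest falls added DSCC1, which helps load the sliding clamp (2636 to 163), FAM111B (2014 to 105), the DNA glycosylase NEIL3 (266 to 13.0), the mitotic kinase PBK (946 to 55.1), GTSE1, a microtubule-bound protein of G2 (1040.1 to 62.8), and ADORA1, an adenosine receptor (199.7 to 11.5). The chromatin ATPase ATAD2 fell from 27812 to 3669 (log2 -2.92) and DHRS2, a short-chain dehydrogenase, from 56702 to 12379.8 (log2 -2.20), both among the largest losses. On the gaining side stood BCAS1 (8449 to 28877), the scaffold protein AHNAK (17088 to 42314), the calpain CAPN2 (18558 to 41365), CD24 (22504 to 49552) and SUSD2 (26956 to 55426). S100A6, a calcium-binding protein, went from 17450.3 to 34864, just short of 2-fold, and stood at -0.04 in the repeat.

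Genes often used as references were not all level. Of 18 listed, ACTB (log2 -1.35) and HPRT1, a purine salvage enzyme (654 to 319), fell, GAPDH was at -0.65, and the list median was -0.19. B2M, the light chain of MHC class I, was at 4678 and 5328 and was chosen after its values were seen.

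Adding lapatinib to JQ1 repeated most of these calls. Of the 346 called genes that the naming rule takes, 278 passed 2-fold in the same direction there. Those named above that did not were ACSL5, ACTG1, ACVR2A, AHNAK, ATP6V0A4, ATP6V1B1, AZGP1, BAX, BBS1, BMPR1B, CD24, CD68, CDKN2D, CGNL1, CTSD, DDB2, DHRS2, DUSP7, EGF, EHF, EHHADH, EIF3C, ELF5, ERBB2, FARSB, GPX3, H2AC6, H2BC5, HADHB, HLA-DMA, HSPD1, IDH1, IL18, IRF9, JUNB, KCNJ11, KIFAP3, KRT23, MT1X, MYH14, NOP56, NPAS2, NR1H3, NR4A3, PDK3, PFKFB3, PPT1, PSMG1, SDF2L1, SEMA4A, SLC16A4, SLC44A4, SNHG17, SUSD2, SYT15, TAPBP, TM7SF2 and WNT9A. Of the 825 raised genes 496 (60.1%) rose at least 2-fold in that pair too, where 7.39% of the 10221 genes did, and of the 839 lowered genes 700 (83.4%) fell, where 10.9% did. Only 2 raised and 2 lowered genes passed 2-fold in the opposite direction. They were CEACAM6, a cell surface glycoprotein (170.4 to 453 with lapatinib alone and 96.6 to 37.1 on JQ1), the pseudogene OCLNP1 (20.3 to 135 and 138 to 0), EIF3C (295 to 120.5 and 390.3 to 1986) and ZNHIT2 (104 to 14.1 and 0 to 216), which except for EIF3C were named after their values were seen. OCLNP1 and ZNHIT2 were listed at 0 in 1 library of the repeat each. The median log2 of the raised genes was 1.31 in the main pair and 1.13 in the repeat, and that of the lowered genes -1.61 and -1.75.

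In BT474m1 the same treatment raised 257 (31.2%) of the genes raised in SKBR-3, where 6.75% of the genes tested in SKBR-3 were raised, and lowered 444 (52.9%) of the genes lowered in SKBR-3, where 6.59% were lowered. The replication and recombination lists were low in both lines, with medians in BT474m1 of -2.22 for replication and -2.42 for recombination. The ribosome biogenesis list stood at -0.71 in SKBR-3 and -0.26 in BT474m1, and the breast secretory list at 1.10 and 0.21. With 1 library on each side, the difference between lines was not tested.

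**Figure D5:**
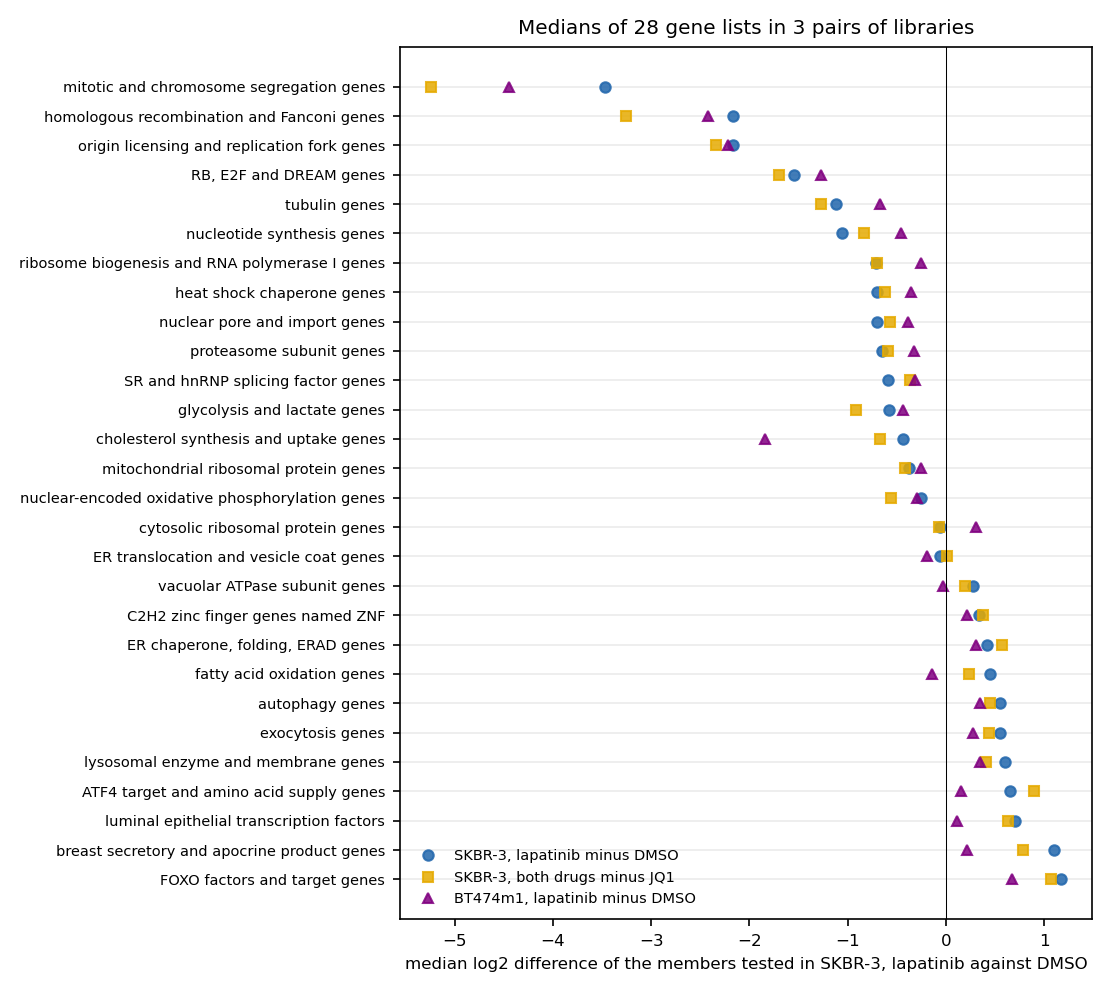
For each gene list on the y axis, the x axis gives the median log2 difference of the members tested in SKBR-3 in 3 pairs of libraries: SKBR-3 lapatinib minus DMSO (circles), SKBR-3 both drugs minus JQ1 (squares) and BT474m1 lapatinib minus DMSO (triangles). The 3 symbols lie on the same side of 0 for most lists, and the cholesterol list sits at -0.43 in SKBR-3 and -1.85 in BT474m1.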

How the data were processed

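Poly(A) RNA was sequenced by the authors from the 8 libraries. The deposited values are a normalised signal per gene, which the authors made with RSEM estimates of read counts and scaled so that the upper quartile of each library is 1000. Their processing notes name hg19, Picard 1.88, SAMtools 1.2 and R 3.2.2. The methods text names hg38, STAR and Salmon. The 48 h of treatment is that of the labels and of a legend of the study, while its general cell culture methods name a shorter time. The labels name 1 library kit among the sample characteristics and another in the extract protocol, so the use of strand is uncertain.

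The step between low values gave the worth of 1 read in each library (0.7158 with DMSO and 0.7657 with lapatinib), and 84.7% of values above 0 were then whole reads to within 1% of a read. A floor of 3 reads was worth 2.15 and 2.3 units. The software was matplotlib 3.10.9, scipy 1.17.1, pandas 2.3.3, numpy 2.4.6 and Python 3.11.15. The compared genes reached a value of 100 in either library, and the measure was the difference of log2(value + 1), which understates changes of low genes. Calls were made at 2-fold. In the repeat and in BT474m1 the same 2-fold line was applied to the genes tested in the main pair, without a new filter. The 95% intervals are exact Clopper-Pearson intervals on the recovered reads. The script that makes the calls was tested on simulated data with known changes.

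Genes were named by rule: in each list up to 6 members with the largest change in the commoner direction and 4 in the other, the 25 largest rises and falls, the 15 largest gains and losses in value, and all members of the signalling and luminal lists. A few genes taken by the rule are not reported here. The comparison, lists and members were chosen with earlier results of these data known. Symbols were matched through Entrez identifiers to RefSeq for 20372 genes, and promoters were the first listed RefSeq window of each gene (GRCh38.p14). Alternatives were another pseudocount, other filters and other scalings.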

Additional observations from a re-analysis of the deposited data

Results flagged for a closer look

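Of the genes named in the report that passed the value filter in both lines, 7 moved at least 2-fold in opposite directions between the lines when lapatinib was added, which is what set them apart. Each line had 1 library per treatment, so none of these differences was tested. EGR1, an immediate early transcription factor, had a log2 of -2.98 in SKBR-3 and 1.11 in BT474m1. DHRS2, a short-chain dehydrogenase, had -2.20 and 1.49, and SNHG3, a small nucleolar RNA host gene, -2.11 and 1.29. KCNK5, a potassium channel, had -1.57 and 1.64. In the other direction, GALNT12, which starts mucin-type glycans, had 1.82 in SKBR-3 and -1.02 in BT474m1, DDB2, a damage-binding protein, 1.06 and -1.23, and SUSD2, a membrane protein with a sushi domain, 1.04 and -2.42. DDB2 and SUSD2 lost their call in SKBR-3 when the libraries were scaled by the median of ratios. DHRS2, DDB2 and SUSD2 did not pass 2-fold in the same direction in the SKBR-3 repeat on JQ1.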

How the results depend on the processing

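The counts of raised and lowered genes, 825 and 839, followed the value filter. They were 1349 and 1193 with a filter at 10, 303 and 316 at 1000 and 1871 and 1653 with no filter. With a pseudocount of 10 they were 752 and 801, with scaling by the median of ratios 633 and 960, with equal totals 708 and 897, and with the whole counting interval past 2-fold 554 and 658. The share of raised genes that repeated on JQ1, 60.1%, was 64.9% with the median of ratios, 68.8% with equal totals and 48.5% with no filter. The share of lowered genes that repeated, 83.4%, was 80.0%, 79.5% and 62.6% under the same settings and 76.7% with a filter at 10. No called gene named in the report changed direction under the scalings or the pseudocount. Of the 346 called genes that the naming rule takes, 14 lost their call with equal totals, 22 with the median of ratios and 8 with a pseudocount of 10, which were ACVR1, BAX, ELF5, H2BC5, ID4, PDK3, SEMA4A and SNHG17. The number of lists with more members lowered than raised was 29 and ran from 24 to 33 over the alternatives. No paired analysis was possible because the groups compared held 1 library each and so shared fewer than 2 replicate numbers. A fit of lapatinib over both lines and both JQ1 backgrounds, which would take lines and backgrounds as replicates, was not run. The spread between cultures is unknown, and for a gene near the median the counting interval was 0.273 wide on the log2 scale.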

Other observations

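Several lists not described above held few calls, and their shares are read beside the 8.07% of all genes raised and the 8.21% lowered. Hypoxia-inducible factor targets gave 1 call among 15 (6.67%), EGLN3, an oxygen-sensing prolyl hydroxylase, which fell from 211 to 91.9. Of 8 genes of the insulin-like growth factor system 1 rose (12.5%) and none fell, and the median log2 was 0.39. Of 18 death receptor and caspase genes 1 rose (5.56%) and none fell. Metallothionein and zinc transport genes gave 2 falls among 19 (10.5%, near the share of all genes), and their median was 0.12.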
